A study of Homo sapiens with 12 samples.

Results

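GDPD1 and its neighbours on the long arm of chromosome 17 (band 17q22) were followed in RNA-seq libraries from cells in which an activator or a repressor was sent to LTR5HS, the long terminal repeats of the human endogenous retrovirus HERVK. The set was chosen by gene name: 10 genes (TRIM37, SKA2, PRR11, SMG8, GDPD1, YPEL2, DHX40, CLTC, PTRH2 and VMP1) of the 26641 in the deposited count table, and all 10 were found there and passed the filter on low counts in every comparison. The choice was made with earlier results of these data known, so counts among the 10 set beside shares of all genes are descriptions. The cells were NCCIT, a human embryonal carcinoma line, carrying a doxycycline-inducible, nuclease-dead Streptococcus pyogenes Cas9 (dCas9) fused to VPR, a strong transcriptional activation domain (CRISPRa), or to KRAB, a repressive domain (CRISPRi). Each fusion was combined with 1 of 3 arrays of guide RNAs made by CARGO, a method that places many guides in 1 construct. In the LTR5HS Sp lines, guides against LTR5HS had the S. pyogenes scaffold and could recruit the fusion, which is called recruitment here. In the LTR5HS Sa lines the same guides had the S. aureus scaffold, which does not pair with this dCas9, and in the nontarget Sp lines the guides had the S. pyogenes scaffold but no genomic match; both were controls. All 6 lines, controls included, were treated with doxycycline for 4 days, all were selected populations with the constructs inserted by PiggyBac transposition, and each gave 2 libraries, so that each fusion had 2 recruitment and 4 control libraries.

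The 10 genes have separate roles. GDPD1 is a membrane-bound lysophospholipase D of the glycerophosphodiesterase family, which cleaves lysophospholipids and N-acyl lysophospholipids. YPEL2 belongs to the Yippee-like family of small zinc-binding proteins. SMG8 is a subunit of the SMG1 kinase complex of nonsense-mediated mRNA decay, and DHX40 is a DEAH-box helicase. CLTC is the clathrin heavy chain of coated vesicles, PTRH2 a mitochondrial peptidyl-tRNA hydrolase, and VMP1 an endoplasmic reticulum membrane protein needed to form autophagosomes. TRIM37 is an E3 ubiquitin ligase, SKA2 a subunit of the kinetochore SKA complex, and PRR11 a proline-rich protein of the cell cycle whose start site lies next to that of SKA2 on the other strand. Long terminal repeats carry promoter and enhancer sequence from the virus, and a solitary repeat can lie far from any gene.

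The repeat beside GDPD1 was placed on hg38 by searching chromosome 17 for the guides that the study designed to delete it, each of which had 1 exact site there. The interval between the outer ends of both sites, chr17:59290045-59291274, was 1230 bp long and lay within no annotated gene (GENCODE 44), 14.07 kb past the 3′ end of GDPD1 and 40.38 kb before the start of YPEL2. The sites of the CARGO array inside this interval are shown because the array could place a fusion there. Of the 12 guides, each 16 bases long, 3 had an exact site followed by an NGG motif in the interval (minus strand; the motif is in capitals):

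LTR5HS-1, chr17:59290107-59290125: tactaagggaactcagAGG
LTR5HS-2, chr17:59290315-59290333: aaaaccgccttagggcTGG
LTR5HS-8, chr17:59290467-59290485: taaagggtctgtgctgAGG

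A further 4 guides had no exact site there but 1 with a single mismatch, written as guide base, position from the guide's 5′ end and genomic base: LTR5HS-3 (T6C, at the site of LTR5HS-2), LTR5HS-4 (G6A), LTR5HS-7 (G8A) and LTR5HS-9 (C3T). Chromosome 17 held 90 exact sites of the 12 guides in all. The nearest exact site outside the interval was 5087.91 kb to the left and 5640.06 kb to the right, so that no other exact site lay within 1 Mb. Sites with mismatches were not searched outside the interval. Distances below run from the middle of the 3 exact sites to each transcription start site (TSS). GDPD1 started 69.8 kb to the left and YPEL2 41.4 kb to the right. To the left, SMG8 started at 80.3 kb, PRR11 at 134.6 kb, SKA2 at 135.1 kb and TRIM37 at 183.4 kb. To the right, DHX40 started at 275.3 kb, CLTC at 329.6 kb, PTRH2 at 417.1 kb and VMP1 at 417.4 kb.

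Total counts ran from 13601701 to 24840708 in 11 libraries and reached 69797411 in the dCas9-KRAB nontarget Sp replicate 2, 3.84 times the median of the others. A level of 3 counts was worth 0.0430 to 0.221 CPM (counts scaled to the same sequencing depth, per 1000000). The labelled cell type was checked with 12 pluripotency markers, which summed to 5059 to 6668 CPM in the dCas9-KRAB libraries and to 1209 to 1836 CPM in the dCas9-VPR libraries. NANOG stood at 92.8 to 184.9 CPM with dCas9-KRAB and at 1.05 to 5.01 CPM with dCas9-VPR, and POU5F1 at 41.1 to 112.7 and 9.85 to 28.3 CPM, so that in all 6 dCas9-VPR libraries, controls included, these defining markers were low. Of 12 differentiation markers, 11 were in the table, and they summed to 3490 and 3497 CPM in the dCas9-VPR recruitment libraries, 692 to 749.3 CPM in the dCas9-VPR controls and 792.8 to 976.4 CPM in all dCas9-KRAB libraries. The collagen gene COL1A1 alone gave 2897 and 3006 CPM in the dCas9-VPR recruitment libraries. VIM alone gave 763 to 957.8 CPM in the dCas9-KRAB libraries, most of the sum there, and 310.4 to 526.4 CPM in the dCas9-VPR controls. COL1A1 went the other way, at 4.74 to 17.4 CPM with dCas9-KRAB and 60.2 to 90.1 CPM in the dCas9-VPR controls. The sums therefore do not show how the other differentiation markers differed between the fusions.

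In the controls, CLTC and VMP1 were the most abundant of the 10 genes and GDPD1 and YPEL2 the least (levels per length, FPKM, CPM divided by the counted gene length in kb). With dCas9-VPR controls (n = 4 each), CLTC stood at 96.5 ± 12.7 FPKM (SD), VMP1 at 46.7 ± 6.4, SKA2 at 19.6 ± 4.86, DHX40 at 17.3 ± 0.487 and PRR11 at 14.7 ± 1.56. SMG8 followed at 14.1 ± 0.430 FPKM, TRIM37 at 11.3 ± 0.633, PTRH2 at 8.70 ± 0.457, YPEL2 at 2.65 ± 0.255 and GDPD1 at 2.21 ± 0.367. In this order SKA2 overlapped DHX40 and PRR11, PRR11 overlapped SMG8, and YPEL2 overlapped GDPD1 across libraries. With dCas9-KRAB controls the levels were 99.5 ± 7.71 FPKM for CLTC, 48.1 ± 4.78 for VMP1, 29.4 ± 1.42 for PRR11, 19.2 ± 2.54 for SKA2 and 19.1 ± 0.627 for DHX40. TRIM37 stood at 18.4 ± 1.58 FPKM there, SMG8 at 15.3 ± 0.864, PTRH2 at 12.7 ± 1.54, GDPD1 at 3.25 ± 0.505 and YPEL2 at 2.26 ± 0.515. The ranges of SKA2, DHX40 and TRIM37 overlapped, as did those of SMG8 and PTRH2 and those of GDPD1 and YPEL2. The control libraries of PRR11, TRIM37, PTRH2 and DHX40 were all higher with dCas9-KRAB than with dCas9-VPR, as they were for 24.8% of 16673 genes (48.0% were separate in either direction), and those of the other 6 overlapped. This difference between lines was not tested.

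**Figure D1:**
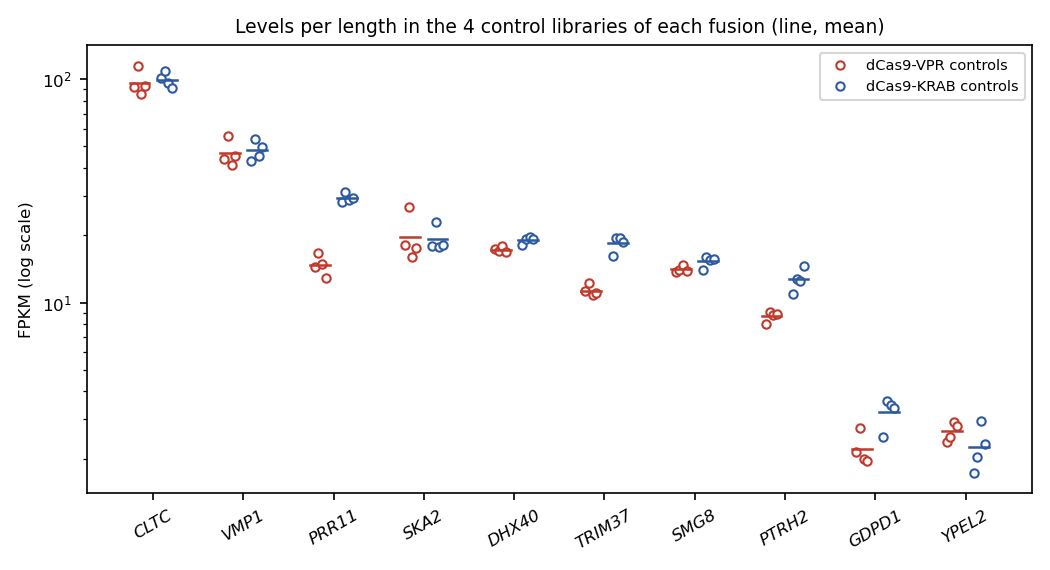
Levels per length (FPKM, log scale) of the 10 genes in the 4 control libraries of each fusion, with a line at the mean. CLTC lies near 100 FPKM, GDPD1 and YPEL2 lie between 1.73 and 3.63 FPKM, and PRR11, TRIM37, PTRH2 and DHX40 are higher in every dCas9-KRAB control library than in any dCas9-VPR one.

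The first comparison asked whether recruiting the activator to LTR5HS changed the expression of these genes. With CRISPRa, 4 of the 10 genes rose, YPEL2, GDPD1, DHX40 and SMG8, and none fell, where 28.0% of the 16271 genes tested passed, 15.7% rising and 12.3% falling (edgeR quasi-likelihood test, adjusted p under 0.05 over all genes tested). They included GDPD1 and YPEL2, the genes between which the repeat lies. In RNA from whole cultures, a change per cell and a change in the share of cells of a type cannot be told apart. The 10 log2 fold changes had a median of 0.01, beside -0.02 over all genes.

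YPEL2 showed the largest change of the 10. Its level was 40.8 and 33.1 CPM in recruitment replicates 1 and 2, 12.4 and 15.3 CPM in the LTR5HS Sa libraries, and 13.1 and 14.6 CPM in the nontarget Sp libraries. Both recruitment libraries lay above all 4 controls, which held for 25.5% of the genes tested. The log2 fold change was 1.42 (SE 0.15), a 2.67-fold increase, with an edgeR adjusted p of 0.000239, and the call held under all 15 alternative settings.

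GDPD1, with a start site 69.8 kb from the sites, was at 16.9 and 12.2 CPM in the recruitment libraries (304 and 228 counts). Its controls were at 7.45 and 6.95 CPM with LTR5HS Sa and at 9.55 and 6.78 CPM with nontarget Sp. The groups did not overlap, and the lower recruitment library exceeded the highest control by less than the 2 recruitment libraries differed from each other. The log2 fold change was 0.92 (SE 0.20), a 1.90-fold increase (edgeR adjusted p = 0.0107). The study picked GDPD1 for its opposite changes with both fusions in these same libraries, and for the number, distance and orientation of nearby repeats. Its own changes here are therefore not independent evidence, neither of their direction nor of their passing a test. The counts of called genes among the 10 with either fusion include GDPD1. Outside these libraries, the study reported lower GDPD1 expression by RT-qPCR in NCCIT clones with this repeat deleted. It had fewer deleted clones for this repeat than for the others it deleted. Without recruitment replicate 1 the log2 fold change was 0.68 and the call was lost (adjusted p = 0.134).

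DHX40 and SMG8 changed less, and with little spread. DHX40 stood at 83.2 and 81.7 CPM in the recruitment libraries, against 63.6 and 65.7 CPM with LTR5HS Sa and 62.6 and 61.5 CPM with nontarget Sp. SMG8 stood at 59.6 and 57.4 CPM, against 45.0 and 48.1 CPM with LTR5HS Sa and 45.6 and 45.4 CPM with nontarget Sp. For both genes the recruitment libraries lay above every control. The log2 fold change of DHX40 was 0.38 (SE 0.09), with an edgeR adjusted p of 0.0176. That of SMG8 was 0.35 (SE 0.10), with an edgeR adjusted p of 0.0304. Both calls depended on single libraries: DHX40 was called in 3 and SMG8 in 2 of the 6 fits that left out 1 library. DHX40 was lost without either recruitment replicate (adjusted p = 0.129 and 0.124) or LTR5HS Sa replicate 1 (0.0516). SMG8 was lost without these libraries (0.191, 0.152 and 0.0890) or without nontarget Sp replicate 2 (0.0587).

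The other 6 genes did not pass the test with CRISPRa, and their log2 fold changes lay between -0.29 and 0.17. CLTC was at 989.8 and 869.1 CPM in the recruitment libraries and 734.5 to 986.0 CPM in the controls (0.17, SE 0.12). VMP1 was at 97.97 and 78.7 CPM against 90.1 to 121.7 CPM (-0.20, SE 0.14), and PTRH2 at 18.3 and 16.2 CPM against 17.8 to 20.1 CPM (-0.16, SE 0.13). The recruitment and control ranges of CLTC, VMP1 and PTRH2 overlapped. On the left, TRIM37 was at 45.4 and 51.9 CPM against 51.9 to 58.7 CPM (-0.16, SE 0.11), and SKA2 at 55.3 and 45.2 CPM against 50.1 to 84.2 CPM (-0.29, SE 0.21). PRR11 was at 81.8 and 77.3 CPM against 83.3 to 107.8 CPM, the one of the 6 whose groups did not overlap, with a log2 fold change of -0.26 (SE 0.12; edgeR adjusted p = 0.150). Both recruitment libraries were below all 4 controls for 24.4% of the genes tested.

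**Figure D2:**
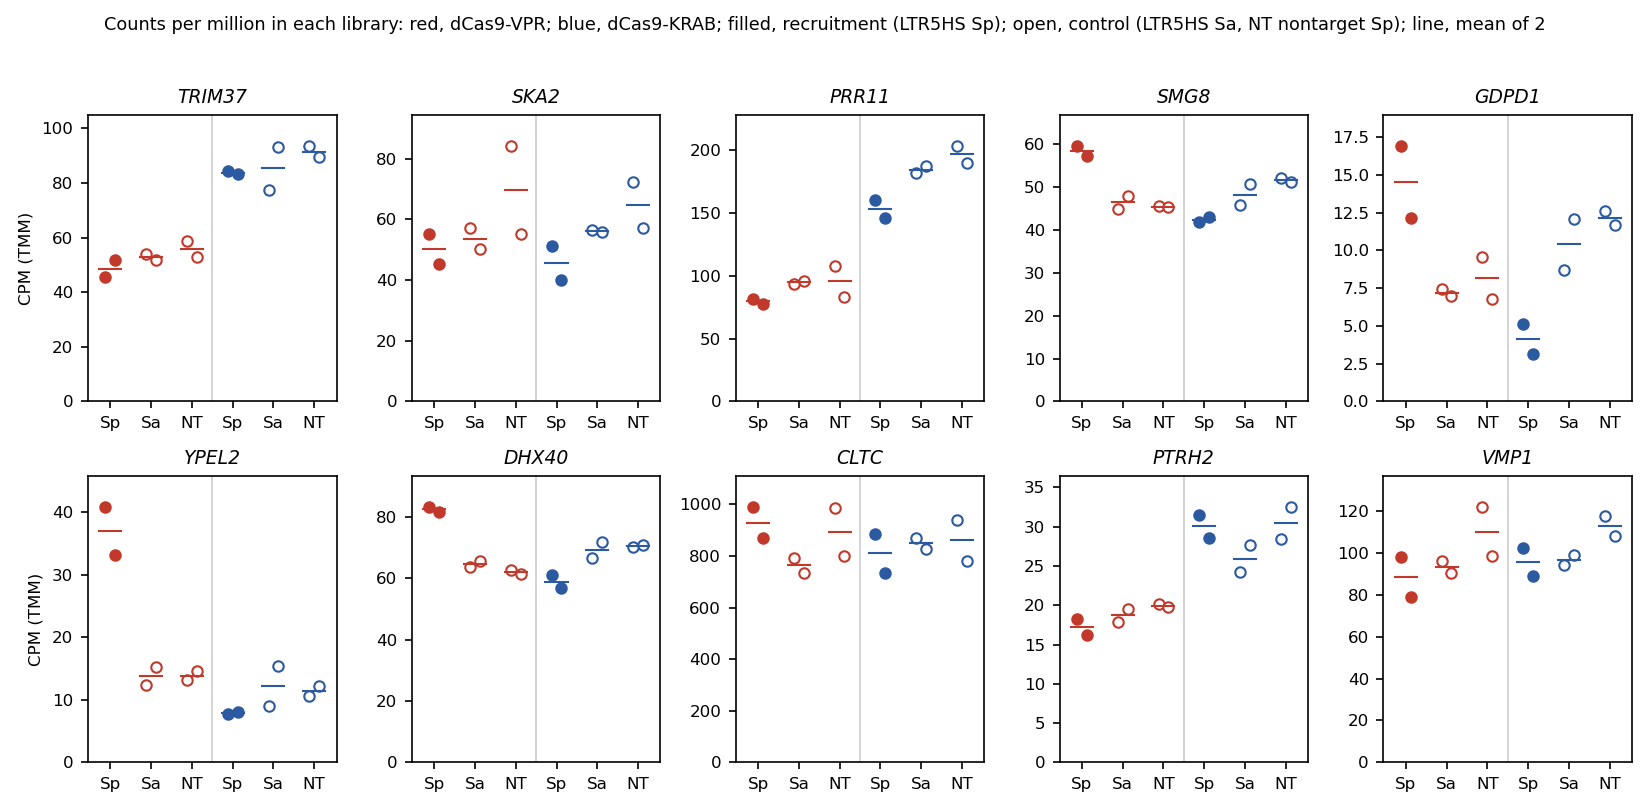
Level of each of the 10 genes (CPM on TMM library sizes, linear axes from 0) in all 12 libraries, in order along the chromosome. Red is dCas9-VPR, blue dCas9-KRAB, filled points recruitment and open points controls (Sa, LTR5HS Sa; NT, nontarget Sp), with replicate 1 on the left of each pair and a line at the mean of 2. YPEL2 with dCas9-VPR (33.1 and 40.8 CPM against 12.4 to 15.3 CPM) and GDPD1 with both fusions stand furthest from their controls.

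The second comparison asked the same of the repressor. With CRISPRi, GDPD1 was the 1 gene of the 10 that passed the test and it fell, where 2.77% of the 15520 genes tested passed, 1.94% falling and 0.831% rising. The study picked GDPD1 partly for this fall, so its call follows in part from that choice. DESeq2 called the same number of the 10, and at an unadjusted p under 0.05 there were 5 of 10, against 13.6% of all genes tested. The log2 fold changes of 9 of the 10 genes were below 0, with a median of -0.24 beside 0.00 over all genes, of which 49.9% were below 0. Between the 2 dCas9-KRAB control arrays, without recruitment, 9 of the 10 were also below 0 (LTR5HS Sa over nontarget Sp). Their median there was -0.10, and 49.5% of all genes tested were below 0. Both recruitment libraries lay below all 4 controls for 6 of the 10, GDPD1 and 5 genes that did not pass, and 0 of the 10 lay above them; of all 15520 genes tested, 1869 lay below and 1750 above, 23.3% together.

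GDPD1 was at 5.10 and 3.11 CPM in the dCas9-KRAB recruitment libraries, 8.70 and 12.1 CPM with LTR5HS Sa and 12.6 and 11.7 CPM with nontarget Sp. The recruitment libraries were the 2 lowest of the 6. The lowest value rested on 46 counts, with an exact 95% Poisson interval of 2.28 to 4.15 CPM that covers counting error only, and lay below the interval of the lowest control (7.38 to 10.2 CPM). The log2 fold change was -1.44 (SE 0.25), a level 0.367 times that of the controls (edgeR adjusted p = 0.0129). Without recruitment replicate 2 it was -1.15 and the call was lost (adjusted p = 0.123).

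YPEL2 was at 7.68 and 7.99 CPM in the recruitment libraries, against 9.04 and 15.4 CPM with LTR5HS Sa and 10.7 and 12.2 CPM with nontarget Sp. Its 2 recruitment libraries lay below all controls, but the LTR5HS Sa libraries differed from each other by more than the lower of them differed from recruitment. The log2 fold change was -0.59 (SE 0.22) and did not pass the test (edgeR adjusted p = 0.274; 0.179 to 0.638 over the alternatives). SMG8 was at 41.8 and 43.1 CPM against 45.9 to 52.2 CPM, with a log2 fold change of -0.24 (SE 0.11; adjusted p = 0.391). DHX40 was at 61.0 and 56.8 CPM against 66.5 to 71.8 CPM, likewise -0.24 (SE 0.10; adjusted p = 0.343). For both genes the recruitment libraries lay below every control without passing the edgeR test.

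SKA2 and PRR11, whose start sites are neighbours, also lay below their controls with dCas9-KRAB. SKA2 was at 51.4 and 40.1 CPM against 55.7 to 72.4 CPM, with a log2 fold change of -0.40 (SE 0.15; edgeR adjusted p = 0.278). PRR11 was at 160.1 and 146.1 CPM against 181.7 to 203.3 CPM, with a log2 fold change of -0.31 (SE 0.10; edgeR adjusted p = 0.188). The log2 fold changes of both genes were thus below 0 with either fusion, and none of these 4 values passed the test. TRIM37, CLTC, VMP1 and PTRH2 had overlapping groups with dCas9-KRAB and log2 fold changes of -0.07 (SE 0.11), -0.07 (SE 0.11), -0.13 (SE 0.12) and 0.09 (SE 0.14).

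The difference between the effects of both fusions was tested directly, as the CRISPRa minus the CRISPRi log2 fold change in 1 model over all 12 libraries. The same 4 genes that rose with CRISPRa differed, GDPD1 by 2.37 (SE 0.34; edgeR adjusted p = 0.000248), YPEL2 by 2.01 (SE 0.27; 0.000172), DHX40 by 0.63 (SE 0.12; 0.00240) and SMG8 by 0.59 (SE 0.13; 0.00658). A difference passed the test for 21.0% of the 16673 genes tested, above 0 for 11.5% and below 0 for 9.53%. The calls of these 4 genes held under all 20 alternative settings, with a highest adjusted p of 0.0474, for SMG8. The other 6 genes differed by -0.25 (PTRH2, SE 0.19) to 0.24 (CLTC, SE 0.18) and did not pass. Genes called higher with CRISPRa and lower with CRISPRi, as GDPD1 was, made up 1.47% of the 15145 genes tested with both fusions. GDPD1 was picked partly for that pattern, so its place among them and its difference between the fusions are descriptions only. A log2 fold change above 0 with the activator and below 0 with the repressor, whether called or not, was found for 23.9% of those genes and for 5 of the 10 (GDPD1, YPEL2, DHX40, SMG8 and CLTC). The lines of the fusions also differed in their marker levels, and the fusion and that state of the lines cannot be told apart in this difference.

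**Figure D3:**
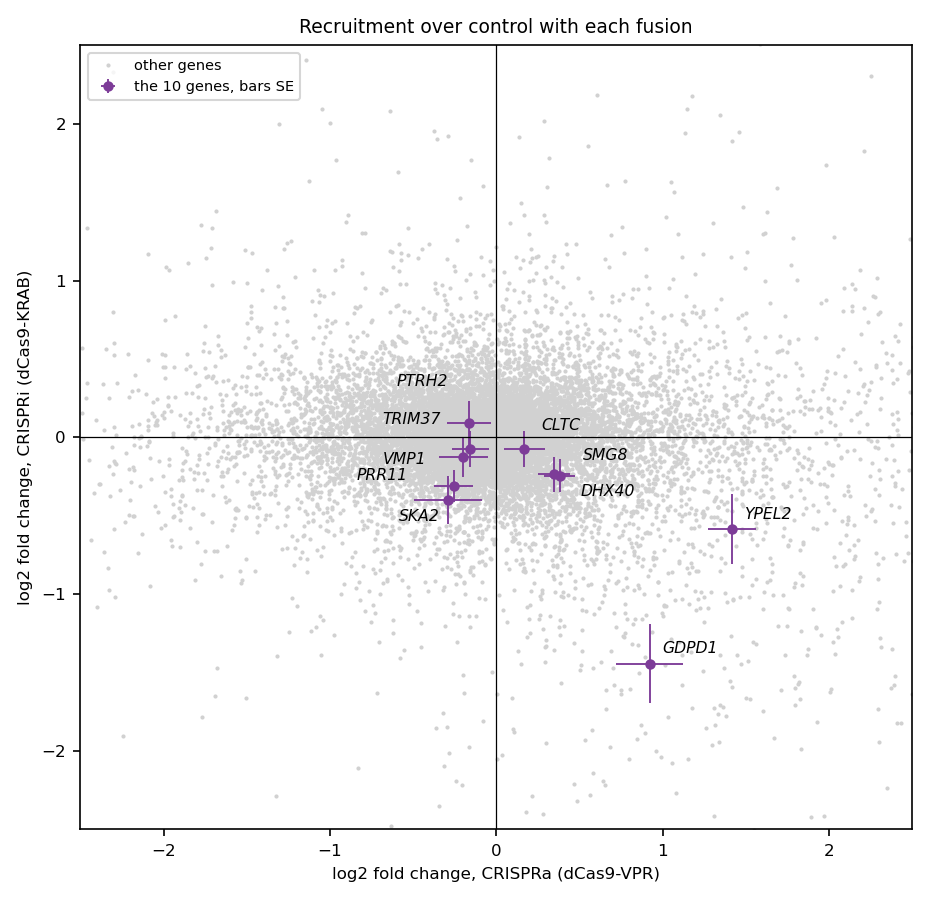
Log2 fold change of recruitment over control with CRISPRa (horizontal) and CRISPRi (vertical) for 15145 genes tested with both (grey dots; 434 lie beyond ±2.5 and are not drawn) and for the 10 genes (purple, bars SE). GDPD1 (0.92 and -1.44) and YPEL2 (1.42 and -0.59) stand apart from the other 8, and DHX40 and SMG8 lie between them and the centre.

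Some markers of cell state passed the edgeR test with CRISPRa, where 28.0% of all genes tested passed. Their number was near that background. Of the 12 pluripotency markers, L1TD1 rose with CRISPRa, and SOX2, TERF1 and DNMT3B fell. Of 9 differentiation markers tested, COL1A1, CDX2 and GATA6 rose, with COL1A1 at 60.2 to 90.1 CPM in the dCas9-VPR controls, far below its recruitment level. With CRISPRi, 0 of 12 and 0 of 8 passed in edgeR and in DESeq2 (6 and 0 at an unadjusted p under 0.05). Of all genes tested with CRISPRi, 2.77% passed in edgeR and 13.6% had an unadjusted edgeR p under 0.05. The summed differentiation markers were 801.0 and 854.9 CPM in the recruitment libraries against 792.8 to 976.4 CPM in the controls. Most of these sums was VIM, at 763.8 to 834.9 CPM in recruitment and 763 to 957.8 CPM in the controls. Between the 2 dCas9-VPR control arrays, with no recruitment, 2 of 12 pluripotency and 3 of 9 differentiation markers also differed (log2 fold changes of the latter list from -0.85 to 2.22), where 4.46% of all genes passed. The part of these changes in the rise of YPEL2, GDPD1, DHX40 and SMG8 was not tested.

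The control arrays were compared with each other as background for the 10 genes. Between LTR5HS Sa and nontarget Sp, 0 of the 10 passed with either fusion in edgeR or DESeq2, and 0 had an unadjusted edgeR p under 0.05, where edgeR called 4.46% of 15681 genes in the dCas9-VPR controls and 1.46% of 15514 in the dCas9-KRAB controls. GDPD1 differed between the control arrays by -0.17 (SE 0.23) and -0.22 (SE 0.21) on the log2 scale, and YPEL2 by 0.01 (SE 0.19) and 0.08 (SE 0.24). The largest such difference among the 10, by size, was -0.37 (SE 0.19) for SKA2 with dCas9-VPR, where nontarget Sp replicate 1 (84.2 CPM) was above the other 3 controls (50.1 to 57.0 CPM). Without the dCas9-VPR nontarget Sp replicate 2, 3 of the 10 were called, all lower with LTR5HS Sa: SKA2 by -0.62 (edgeR adjusted p = 0.000259), VMP1 by -0.36 (0.0498) and CLTC by -0.34 (0.0491). With the replicate number as a block, SKA2 was called with dCas9-VPR (-0.34; edgeR adjusted p = 0.00649), and 3824 and 1730 of all genes were called against 700 and 226 without it.

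The surrounding region was then read by position. GENCODE 44 placed 86 gene starts within 1 Mb of the sites, of which 36 were matched to the count table, 3 of them by an older symbol. With CRISPRa, 24 of the 36 could be tested, 7 rose and 1 fell, with a median log2 fold change of -0.02. Of all genes, 28.0% passed, 15.7% rising and 12.3% falling, so the count in either direction together was near that background. The split by direction was not tested. Besides the 4 genes above, the called genes were BZRAP1-AS1, RNF43, MTMR4 and PPM1E, all to the left and 534.4 to 953.0 kb away. RNF43, a ubiquitin ligase that dampens Wnt signalling, was at 61.3 ± 0.805 CPM (SD, n = 2) in recruitment against 11.5 ± 2.88 CPM (SD, n = 4), with a log2 fold change of 2.42 (SE 0.20; edgeR adjusted p = 7.34e-05). The log2 fold changes were 2.55 (SE 0.38; edgeR adjusted p = 0.00175) for the antisense transcript BZRAP1-AS1, 0.62 (SE 0.11; 0.00464) for the lipid phosphatase MTMR4 and -2.30 (SE 0.21; 0.000126) for the protein phosphatase PPM1E, and by the size of their point estimates RNF43, BZRAP1-AS1 and PPM1E exceeded every one of the 10 genes. BZRAP1-AS1 was rare, at 1.47 ± 0.189 CPM against 0.247 ± 0.0929 CPM in the controls, and its exons overlap those of RNF43 on the other strand, so the changes of these 2 cannot be told apart without strand. The call of MTMR4 was lost without recruitment replicate 2 (edgeR adjusted p = 0.0728). With CRISPRi, 23 genes could be tested, and GDPD1 was the 1 gene that passed in edgeR; DESeq2 also called 1. Beyond the 10 genes, 0 of 13 passed in either, and 0 at an unadjusted p under 0.05. RNF43 was 0.62 (SE 0.34), MTMR4 -0.10 (SE 0.15) and PPM1E -0.23 (SE 0.23) with CRISPRi. Of the genes tested between TRIM37 and VMP1, those with a called change were therefore the 4 already described, and among them the size of the CRISPRa change was larger for YPEL2 and GDPD1, at 41.4 and 69.8 kb, than for SMG8 at 80.3 kb and DHX40 at 275.3 kb. SKA2 and PRR11, nearer than DHX40, did not pass.

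**Figure D4:**
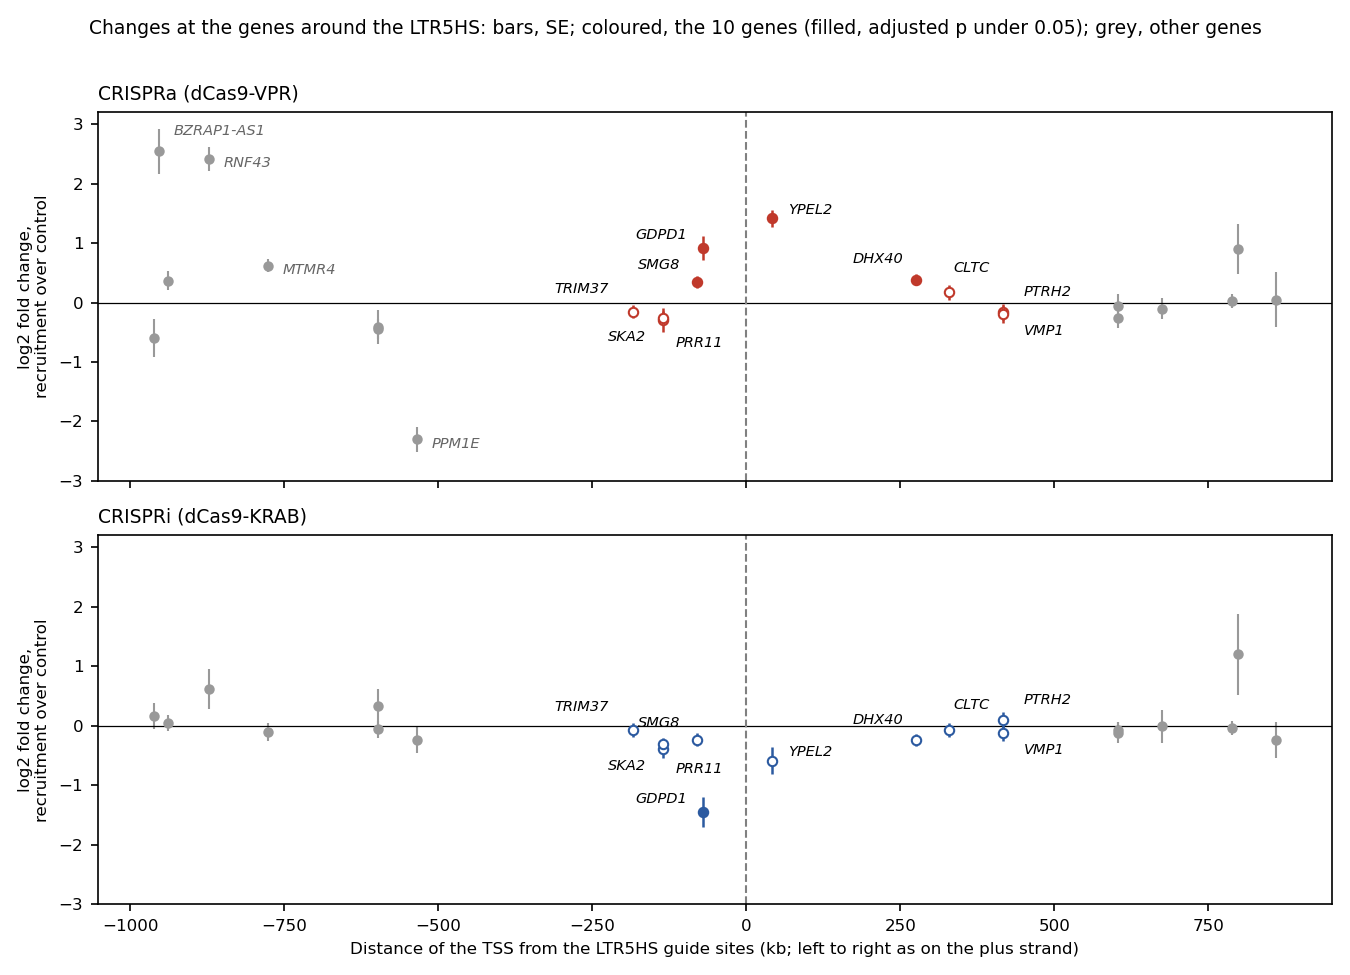
Log2 fold change of recruitment over control (bars SE) against the distance in kb of each gene's start site from the guide sites, with CRISPRa above and CRISPRi below; coloured points are the 10 genes, filled where the adjusted p was under 0.05, and grey points the other genes tested within 1 Mb. In the upper panel YPEL2 (1.42) and GDPD1 (0.92) flank the dashed line at 0 kb, and in the lower panel GDPD1 (-1.44) is the one filled point. The open points of SKA2 and PRR11 and those of PTRH2 and VMP1 overlap.

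The promoters of GDPD1 and YPEL2, the genes with the largest changes of the 10, are shown because these genes lie on opposite sides of the repeat and their promoters differed in the common motifs searched. RefSeq (GRCh38.p14) gave the 250 bases before the start of 9 of the 10 genes. Motifs were searched on both strands and are in capitals where found (GGGCGG, the GC box, and CCAAT; on the other strand the CCAAT box reads ATTGG):

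GDPD1, chr17:59220261-59220510, plus strand: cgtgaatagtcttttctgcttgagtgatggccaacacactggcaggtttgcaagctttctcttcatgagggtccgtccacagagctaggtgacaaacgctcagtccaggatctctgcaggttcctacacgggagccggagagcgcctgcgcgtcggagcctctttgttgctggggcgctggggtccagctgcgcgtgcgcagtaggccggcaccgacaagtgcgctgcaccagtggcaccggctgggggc
YPEL2, chr17:59331405-59331654, plus strand: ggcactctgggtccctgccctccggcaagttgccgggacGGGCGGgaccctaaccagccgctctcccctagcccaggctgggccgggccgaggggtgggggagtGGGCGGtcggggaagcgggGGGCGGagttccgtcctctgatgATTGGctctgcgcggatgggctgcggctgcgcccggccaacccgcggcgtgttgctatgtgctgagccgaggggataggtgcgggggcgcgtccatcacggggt

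The YPEL2 window held 3 GC boxes and 1 CCAAT box and was 73.2% G and C, and the GDPD1 window held neither motif and was 62.0% G and C, where the median of all 35116 promoters was 58.0%. GGGCGG was present in 42.6% of all promoters and CCAAT in 32.0%. The TATA box (TATAAA; 10.7% of promoters) was in neither window, nor was the E-box (CACGTG; 6.34%). Among the rest, DHX40 held 2 GC boxes, CLTC, TRIM37 and SKA2 held 1 each, and the CCAAT letters occurred 5 times before SKA2 and 3 times before PRR11.

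The gene families of the 10 were counted to see which other members moved. Among 12 glycerophosphodiesterases and N-acylethanolamine enzymes, the family and pathway of GDPD1, 10 were tested with CRISPRa, 3 rose and 2 fell (median log2 fold change -0.12). For these and the other family counts below, the shares of all genes that passed were 28.0% with CRISPRa and 2.77% with CRISPRi. The fatty acid amide hydrolases FAAH and FAAH2, which break down the N-acylethanolamines, were the most significant. FAAH changed by 1.79 (SE 0.24; edgeR adjusted p = 0.00109) with CRISPRa and by -1.52 (SE 0.21; 0.00336) with CRISPRi. FAAH2 changed by 1.05 (SE 0.15; 0.00141) with CRISPRa and by -0.66 (SE 0.13; 0.0282) with CRISPRi. Both genes lie on other chromosomes, and among the 9 tested with CRISPRi they were the 2 that passed. The CRISPRi call of FAAH was lost without recruitment replicate 1 (adjusted p = 0.0548), and that of FAAH2 without any 1 of 5 of the 6 libraries (highest adjusted p = 0.231, without recruitment replicate 2). Of the other 4 YPEL genes, 0 passed in edgeR with either fusion (1 and 0 at an unadjusted p under 0.05; 1 and 0 in DESeq2). Of 9 other decay factors with SMG or UPF names, 0 passed in edgeR or DESeq2 (1 with CRISPRa and 2 with CRISPRi at an unadjusted p under 0.05).

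Of 8 other clathrin and AP-2 subunits, AP2M1 and CLTA rose with CRISPRa (0.80, SE 0.11, and 0.45, SE 0.11; edgeR adjusted p = 0.000903 and 0.0194), and AP2M1, the adaptor's cargo-binding subunit, fell with CRISPRi (-0.55, SE 0.11; 0.0315). Of 6 other subunits of the SKA and NDC80 kinetochore complexes, 3 fell with CRISPRa, among them SPC24 (-1.11, SE 0.13; 0.000459) and SKA3 (-0.80, SE 0.17; 0.00907). The call of AP2M1 with CRISPRi was lost without either recruitment library, either LTR5HS Sa library or nontarget Sp replicate 2 (0.0640 to 0.244), and those of CLTA and SKA3 with CRISPRa without recruitment replicate 1 (0.0665 and 0.0990). CLTA was also lost without recruitment replicate 2 (0.175). With CRISPRi, 0 of the 6 kinetochore genes passed in edgeR (3 at an unadjusted p under 0.05; 1 in DESeq2).

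The genes whose profile over the 12 libraries was most like that of GDPD1 were UBE2Q2, TAX1BP1, ZNF28, ZNF83 and ZNF468. Likeness was the root mean square difference of log2 CPM after centring each gene (0.21 to 0.26 for these 5). The 5 were picked over the same libraries, so changes like those of GDPD1 follow from the choice and are a description only. Their log2 fold changes ran from 0.51 (TAX1BP1, SE 0.19) to 1.00 (ZNF468, SE 0.17) with CRISPRa and from -1.74 (UBE2Q2, SE 0.17) to -1.12 (ZNF468, SE 0.20) with CRISPRi, and TAX1BP1 was the one of the 5 that did not pass with CRISPRa (edgeR adjusted p = 0.0754). Single recruitment libraries also decided the calls of UBE2Q2 and ZNF83 with CRISPRa, lost without replicate 2 (0.0761 and 0.0871), and of ZNF28 and ZNF468 with CRISPRi, lost without replicate 2 (0.130 and 0.170). ZNF83 was lost without replicate 1 as well (0.0799), and ZNF468 without nontarget Sp replicate 2 (0.0517). Of the neighbours, DHX40 was the most like GDPD1, at rank 389 of 15142 genes, followed by SMG8 at 455 and YPEL2 at 732.

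Some of the counts could hold reads of overlapping genes, since the library protocol did not mark strand and the strand setting of the counting was not given in the sources used here. GDPD1, SKA2 and DHX40 had no exon overlapping another annotated gene. Exons of YPEL2, TRIM37, PRR11 and CLTC overlap antisense long noncoding RNAs, and TRIM37 also PPM1E, another gene called with CRISPRa. PRR11 and SMG8 overlap a transcript on their own strand, and VMP1 the microRNA gene MIR21. CLTC, PTRH2 and VMP1 overlap each other in turn, and the levels of all these genes carry that uncertainty. DHX40 has a partial copy, DHX40P1, 712.1 kb from the sites. Its readthrough transcript, with a start 728.7 kb away, stood at 0.173 to 0.385 CPM in the means of the 4 groups.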

How the data were processed

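RNA from 12 NCCIT libraries was analysed as deposited: the authors' table of whole-number counts per gene, unnormalized, on hg38. Per the submitters' processing notes and the methods, polyA RNA was reverse transcribed with random hexamers, reads were processed with CASAVA 1.8, trimmed with cutadapt 1.8.1, aligned with HISAT2 2.1.0 and counted with featureCounts 1.4.6-p2. Reads shared by near-identical copies may be lost or split by this counting. Groups followed the labels, and the replicates were independent biological replicates per the methods. All genes were fitted with edgeR 4.0.16 (R 4.3.3; filterByExpr, TMM, quasi-likelihood test; Benjamini-Hochberg over all genes tested, threshold 0.05); the SE is the log2 fold change divided by the square root of F. The scripts were tested on simulated data. CPM used TMM library sizes over 12 libraries. DESeq2 1.42.0, the authors' choice of test, was an alternative, beside other filters, scalings, controls and left-out libraries. Named beyond the 10 genes were genes called within 1 Mb, up to 2 per family list and the 5 profiles most like GDPD1 (log2 CPM, prior count 2). The members and lists were chosen with earlier results of these data known. The 26641 rows included 28 names turned into dates and 2 duplicated names, none among the 10 genes. Depth was 13601701 to 69797411 counts, and Poisson intervals cover counting error only. Transcripts of LTR5HS itself were not analysed here. Guide and promoter sequences came from the study's guide list and RefSeq (GRCh38.p14).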

Additional observations from a re-analysis of the deposited data

Results flagged for a closer look

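In the dCas9-KRAB controls, SKA2 stood at 72.4 CPM in nontarget Sp replicate 1, while the other 3 controls were at 55.7, 56.4 and 57.2 CPM. Its gap to the next library was 0.912 of the group's range, above Dixon's critical value of 0.829 for 4 libraries. It was the 1 such library in 20 groups examined, and chance flags about 1 in 20.

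For 4 genes the effects of recruitment with both fusions differed by a direct test. The CRISPRa minus the CRISPRi log2 fold change was 2.37 for GDPD1, 2.01 for YPEL2, 0.63 for DHX40 and 0.59 for SMG8. The dCas9-VPR and dCas9-KRAB lines also differed in NANOG and POU5F1, and fusion and line cannot be told apart.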

How the results depend on the processing

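No direction of a called change reversed under any alternative. With each library left out in turn, the number of the 10 genes called was 1 to 4 with CRISPRa and 0 to 1 with CRISPRi, GDPD1's log2 fold change was 0.68 to 1.13 and -1.86 to -1.15, and all genes called numbered 2299 to 4626 and 214 to 441. The fits without a recruitment library hold 1 recruitment sample, assumed to vary like the controls. DESeq2 called 704 genes with CRISPRi against 430. SMG8 lost its CRISPRa call without a filter on low counts (adjusted p = 0.0536) and with nontarget Sp alone as control (0.0817). Of 22 calls of the other named genes, 12 held under all alternatives.

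Between the control arrays with dCas9-VPR, leaving out libraries gave 0 to 3 of the 10 genes (SKA2, CLTC and VMP1 without nontarget Sp replicate 2) and 433 to 3093 of all genes, against 700. With dCas9-KRAB they gave 95 to 502 against 226, and 619 without a filter. With the replicate number as a block, SKA2 was the 1 gene called with dCas9-VPR (-0.34, adjusted p = 0.00649), and 3824 and 1730 of all genes were called. The block changed no call of the 10 genes with CRISPRa, CRISPRi or their difference. The labels do not say what a number marks, and each comparison of 2 lines has 2 pairs. Over 13557 genes, replicate differences correlated at 0.335 to 0.484 between dCas9-VPR lines and at 0.206 to 0.516 between dCas9-KRAB lines. Over all pairs of lines, also those of different fusions, the range was 0.0526 to 0.532.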
